A study of Saccharomyces cerevisiae with 3 samples.

Results

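The enzymes that build and lengthen fatty acids in the yeast cytosol and endoplasmic reticulum were described at the level of their mRNAs. The set holds 10 ORFs of the 5293 listed in each library, taken by systematic name: ACC1 (YNR016C), FAS1 (YKL182W), FAS2 (YPL231W), OLE1 (YGL055W), ELO1 (YJL196C), ELO2 (YCR034W), ELO3 (YLR372W), IFA38 (YBR159W), PHS1 (YJL097W) and TSC13 (YDL015C). All 10 were listed in every library, and all 10 passed the filter on low values used for ratios, a mean of at least 1 RPKM over the libraries. They were measured in BY4741, a haploid laboratory strain of Saccharomyces cerevisiae with mating type a, grown to mid-log phase in the rich glucose medium YPD. Cytoplasmic RNA was broken by alkaline hydrolysis, size-selected and sequenced in 3 libraries. One used total RNA with no selection (unselected), another RNA captured on oligo(dT) Dynabeads (poly(A)-selected) and the last RNA depleted of rRNA with the RiboMinus kit. There was 1 library of each kind, so differences lack any replicate check and p-values are not given. The labels do not say whether the libraries share a culture or an RNA extract. Ribosome footprints and Ribo-Zero RNA were not analysed here.

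Acetyl-CoA carboxylase, encoded by ACC1, makes malonyl-CoA, the building block of chain growth. Fatty acid synthase is a large complex of alpha subunits (FAS2) and beta subunits (FAS1), which together hold all the activities that turn acetyl-CoA and malonyl-CoA into long saturated chains. OLE1 encodes the desaturase that makes monounsaturated fatty acids in the endoplasmic reticulum. There the chains are also lengthened by a cycle of condensation (ELO1, ELO2 or ELO3), reduction (IFA38), dehydration (PHS1) and a further reduction (TSC13). ELO1 acts mainly on shorter chains, whereas ELO2 and ELO3 make the very long chains of sphingolipids.

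Depth was worked out from the spacing of low RPKM values, which are reads per kilobase of ORF scaled to the reads of the library. The reads in listed ORFs came to about 4450000 in the unselected, 6470000 in the poly(A)-selected and 1320000 in the RiboMinus library. The 5 a-specific strain markers had 89.5 to 2325 RPKM across the libraries. The 3 alpha-specific markers had 0 to 15.3 RPKM, and MET17, deleted in BY4741, had 0.840 to 2.21 RPKM. RPKM are shares of a library, so less of an mRNA and more of the others cannot be told apart. Intervals are 95% and cover counting error only. Reads here carry no molecular identifiers and need not be independent molecules.

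The coding sequences differ in length by an order of magnitude. ACC1 (chrXIV:654673-661374) has 6699 nt without its stop codon, FAS1 (chrXI:100671-106826) 6153 nt and FAS2 (chrXVI:108652-114315) 5661 nt, ranks 19, 31 and 43 of 5199 ORFs kept. OLE1 (chrVII:398628-400160) has 1530 nt, against a median of 1248 nt over the ORFs kept. ELO2 (chrIII:190592-191635) and IFA38 (chrII:558685-559728) have 1041 nt each, and ELO3 (chrXII:867354-868391) has 1035 nt. ELO1 (chrX:67850-68782) and TSC13 (chrIV:426002-426934) have 930 nt each, and PHS1 (chrX:245591-246244) is shortest at 651 nt. Positions are those of the RefSeq R64 annotation, in which each of these ORFs has 1 coding exon and overlaps no other ORF. Coding GC content ran from 35.3% in TSC13 to 42.3% in FAS2, around a median of 39.6%.

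Oligo(dT) pairs with runs of A, so the longest runs inside the coding sequences are shown for the 4 members that were lower after poly(A) selection and for PHS1. Each line gives up to 20 bases on either side of the run from the R64 genome, 5′ to 3′ on the coding strand, with the run in capitals. The windows are chrXI:101065-101110 for FAS1, chrXVI:109819-109864 for FAS2, chrVII:398867-398911 for OLE1 and chrX:245591-245622 for PHS1, on the plus strand, and chrXIV:660373-660418 for ACC1, on the minus strand.
ACC1: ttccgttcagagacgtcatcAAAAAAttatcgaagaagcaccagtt
FAS1: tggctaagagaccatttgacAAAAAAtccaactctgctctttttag
FAS2: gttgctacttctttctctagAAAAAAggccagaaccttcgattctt
OLE1: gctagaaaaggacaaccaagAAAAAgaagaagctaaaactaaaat
PHS1: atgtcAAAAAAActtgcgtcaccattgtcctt
FAS1 has 4 runs of this length, OLE1 has 2, and ACC1, FAS2 and PHS1 have 1 each. Over the 10 members the longest run was 5 to 7 nt. Of the members not shown, IFA38 and TSC13 had 7 nt, ELO2 6 nt, and ELO1 and ELO3 5 nt. A link between run length and ratio was not tested. The median ORF had 6 nt, and 15.4% of the ORFs kept had a run of at least 8 nt.

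The elongase genes are paralogs, so it was checked whether reads could be split between them. Not a single 30-mer of any of the 10 coding sequences occurred elsewhere in the genome on either strand. The longest identical stretch between elongase genes was 13 nt, between ELO1 (chrX:68689-68725, minus strand) and ELO2 (chrIII:190667-190703, plus strand), shown in capitals with 12 bases on each side.
ELO1: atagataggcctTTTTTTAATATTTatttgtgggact
ELO2: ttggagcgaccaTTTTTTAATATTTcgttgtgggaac
ELO1 with ELO3 and ELO2 with ELO3 shared at most 11 nt.

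In unselected RNA the genes of the carboxylase and the synthase stood above the other members, and the elongation genes ran from 127 RPKM for PHS1 to 335 RPKM for ELO3. FAS1 had 956 RPKM (counting interval 944 to 968), rank 133 of 5293 ORFs. FAS2 had 868 RPKM and ACC1 had 645 RPKM. The desaturase gene OLE1 followed at 347 RPKM and ELO3 at 335 RPKM. This last pair did not differ beyond counting error, with OLE1 above ELO3 by 0.05 log2 (interval -0.05 to 0.14). ELO2, TSC13, IFA38 and ELO1 had 229.6, 228, 225 and 219 RPKM, and no neighbours among these 4 differed beyond counting error. PHS1, the dehydratase gene, was lowest at 127 RPKM. The median listed ORF had 47.6 RPKM, so every member lay above it.

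The poly(A)-selected library gave another order. ELO3 led with 566 RPKM, followed by IFA38 with 340.4 RPKM and ELO1 with 303 RPKM. FAS2 had 285 RPKM, TSC13 262, PHS1 247 and FAS1 245 RPKM. From TSC13 down to ELO2, at 242 RPKM, no neighbours in the order differed beyond counting error. ACC1 had 223 RPKM and OLE1 was lowest at 199.9 RPKM. The highest member was 2.83-fold above the lowest here, against 7.51-fold in unselected and 16.7-fold in RiboMinus RNA.

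In the RiboMinus library the upper part of the order was that of unselected RNA except that FAS1 and FAS2 could not be separated. FAS2 had 1128 RPKM and FAS1 1103 RPKM, a log2 difference of 0.03 (interval -0.01 to 0.08). ACC1 had 611 RPKM and OLE1 419.6 RPKM. IFA38 came next at 351 RPKM, above ELO3 at 275, ELO1 at 237, TSC13 at 215 and ELO2 at 179 RPKM. ELO3 and ELO1, and ELO1 and TSC13, did not differ beyond counting error. PHS1 had 67.6 RPKM from 58 reads, with an interval of 51.3 to 87.4 RPKM.

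**Figure D1:**
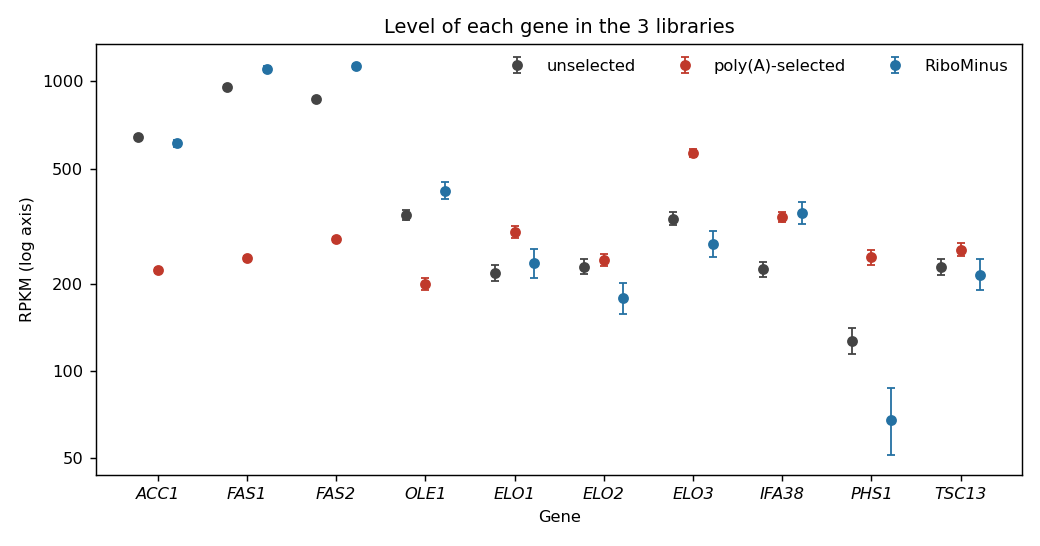
RPKM of each gene on a log axis in the unselected, poly(A)-selected and RiboMinus libraries, 1 library each. Points are the deposited values and bars are 95% Poisson counting intervals, hidden by the point where they are narrow. FAS1, FAS2, ACC1 and OLE1 lie lowest in the poly(A)-selected library, and PHS1 spans 67.6 to 247 RPKM.

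Together the 10 genes took 1.70% of the reads in listed ORFs in the unselected library, 0.680% after poly(A) selection and 1.92% after RiboMinus treatment. ACC1, FAS1 and FAS2 made up 89.1% of the members' reads in the unselected library and 89.9% in the RiboMinus library, but 67.9% in the poly(A)-selected one. The share of the 3 elongase genes was 4.65%, 3.59% and 16.5% in the same order of unselected, RiboMinus and poly(A)-selected. Long ORFs give more reads at the same RPKM, so these shares weight the synthase and carboxylase genes by their length.

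The comparison of poly(A)-selected with unselected RNA asks whether oligo(dT) capture keeps the relative levels of mRNAs. Ratios are given as the difference of log2(RPKM + 0.5) between the libraries, centred on the median difference of the 5199 ORFs kept. That median was 0.24 log2 here. In the comparison of RiboMinus with unselected RNA it was 0.08, and in that of poly(A)-selected with RiboMinus RNA 0.11. Calls of higher and lower use a 2-fold limit, which describes size and tests nothing. After poly(A) selection 4 of the 10 members were lower and 0 higher, while 8.64% of all ORFs kept were lower and 6.60% higher. The 4 were FAS1, FAS2, ACC1 and OLE1, and the elongation genes lay between -0.16 and 0.72. Without centring OLE1 had -0.79 and 3 members were lower. The median of the members was -0.10, against 0 for all ORFs kept by construction.

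FAS1 had 956 RPKM in the unselected and 245 RPKM in the poly(A)-selected library, 3.90-fold lower as deposited. Its centred ratio was -2.20 (interval -2.24 to -2.17). Only 8 of the 5199 ORFs kept had lower ratios, since FAS1 ranked 9 from the lowest. FAS2 went from 868 to 285 RPKM with a ratio of -1.85 (interval -1.88 to -1.81). ACC1 went from 645 to 223 RPKM with a ratio of -1.77 (interval -1.81 to -1.74). Among the 63 ORFs kept with at least 5000 nt of coding sequence, a class chosen after the data were seen, the median ratio was -1.57 and 84.1% were at least 2-fold lower. One of these 63 had a lower ratio than FAS1, whereas 15 lay below FAS2 and 17 below ACC1. In 17 of the 63 ORFs the unselected level was at least 100 RPKM, and their ratios ran from -2.27 to -1.50 with a median of -1.93. FAS2 and ACC1 lay above that median and FAS1 below it.

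HFA1, which encodes the mitochondrial acetyl-CoA carboxylase, has a coding length of 6369 nt, close to that of ACC1. It had 29.4 RPKM in the unselected library and 16.6 RPKM after poly(A) selection, a ratio of -1.04 (interval -1.21 to -0.91). The intervals of the ACC1 and HFA1 ratios did not overlap. The quartiles of the 63 ORFs of at least 5000 nt were -1.83 and -1.21. ACC1, at -1.77, lay between them and HFA1 lay above them. HFA1 was also far less abundant than ACC1, which had 645 RPKM in the unselected library. In RiboMinus against unselected RNA HFA1 had a ratio of 0.21 and ACC1 -0.15.

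OLE1 was low among ORFs of its own length. It went from 347 to 199.9 RPKM, with a ratio of -1.03 (interval -1.12 to -0.95), so its interval reached over the 2-fold limit. The 520 ORFs nearest in rank of coding length, 1404 to 1662 nt, had a median ratio of -0.18, and 504 of them lay above OLE1. Among the 79 ORFs of 1400 to 1700 nt with at least 200 RPKM in unselected RNA, also chosen after the data were seen, the median was -0.44 and 69 lay above OLE1.

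The elongase genes, of which 0 passed the 2-fold limit, differed among themselves. ELO3 had 335 RPKM in the unselected and 566 RPKM in the poly(A)-selected library, with a ratio of 0.51 (interval 0.43 to 0.60). ELO1 had 219 and 303 RPKM and a ratio of 0.23. ELO2 had 229.6 and 242 RPKM and a ratio of -0.16 (interval -0.28 to -0.05), which became 0.07 without centring. ELO2 and ELO3 differ in coding length by 6 nt, and the ratio of ELO2 to ELO3 went from 0.684 in unselected to 0.427 in poly(A)-selected RNA. The log2 difference was -0.68 (interval -0.82 to -0.54), and a difference within a pair does not depend on centring.

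Of the later steps of the cycle, the ketoreductase gene IFA38 had 225 and 340.4 RPKM, with a ratio of 0.36 (interval 0.26 to 0.47). PHS1 had 127 and 247 RPKM and the highest ratio of the set, 0.72 (interval 0.55 to 0.89). At a limit of 1.5-fold it was the 1 higher member, against 20.4% of all ORFs, with the same 4 members lower, against 21.3%. The enoyl reductase gene TSC13 had 228 and 262 RPKM and a ratio of -0.04 (interval -0.15 to 0.08). That interval held the median ORF, and the ratio was 0.20 without centring.

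**Figure D2:**
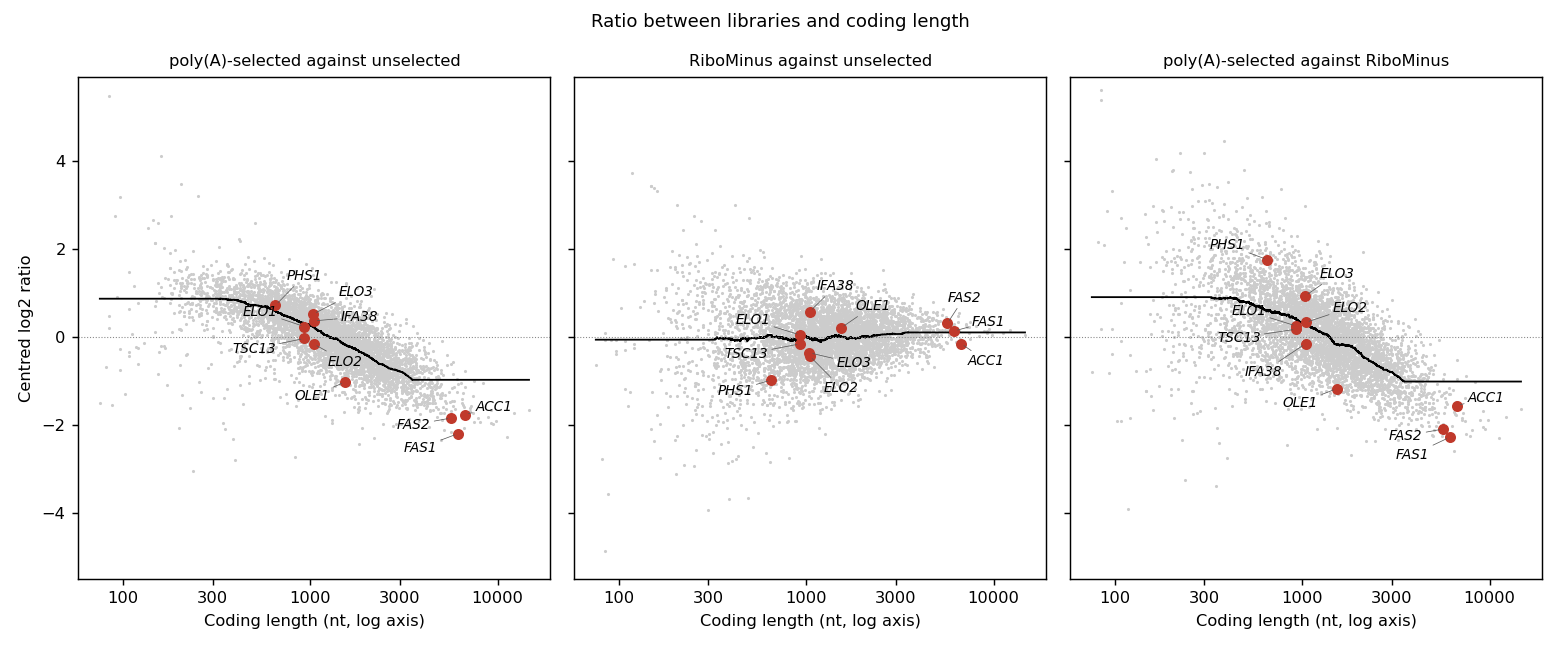
Centred log2 ratio against coding length in nt (log axis) for the 5199 ORFs kept, in grey, with the 10 genes in red and the running median over the 10% of ORFs nearest in length rank as a black line. FAS1, FAS2, ACC1 and OLE1 lie below the line in both comparisons of the poly(A)-selected library, and so do ELO1 and TSC13, by less. The line is flat at the ends, where the window holds the same ORFs.

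Each member was next set beside ORFs of its coding length, by subtracting the median ratio of the 520 ORFs nearest in length rank. In poly(A)-selected against unselected RNA 4 members were then at least 1.5-fold lower and 0 higher, against 9.75% lower and 6.94% higher of all ORFs. They were FAS1 at -1.22, FAS2 at -0.87, OLE1 at -0.85 and ACC1 at -0.79. For the 3 longest members this window covers 2805 to 14730 nt, so it holds mostly shorter ORFs than theirs. With a line fitted on log2 length in each window, an alternative chosen after the data were seen, 2 members were 1.5-fold lower. OLE1 then had -0.84, FAS1 -0.80, FAS2 -0.52 and ACC1 -0.30. The elongation genes lay between -0.38 for ELO2 and 0.28 for ELO3 relative to the window median. Longer members had lower ratios, with a Spearman's rho between ratio and length of -0.85 across the 10 genes and -0.76 across all ORFs kept. These describe genes of the same libraries, which are not independent replicates.

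The comparison of RiboMinus with unselected RNA asks whether rRNA depletion keeps the relative levels of mRNAs. FAS1, FAS2, ACC1 and OLE1 had ratios between -0.15 and 0.30, PHS1 had the lowest ratio of the set at -0.98 and IFA38 the highest at 0.57. At 2-fold 0 of the 10 members were lower and 0 higher, against 5.73% and 4.85% of all ORFs kept. At 1.5-fold 1 member was lower, PHS1, and 0 were higher, against 16.0% and 14.6%. The median of the members was -0.06.

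FAS1 had 956 RPKM in the unselected and 1103 RPKM in the RiboMinus library, with a ratio of 0.13 (interval 0.10 to 0.17). FAS2 had 868 and 1128 RPKM and a ratio of 0.30 (interval 0.27 to 0.34). ACC1 had 645 and 611 RPKM and a ratio of -0.15 (interval -0.20 to -0.11), which became 0.05 with an expression-weighted centre. The 63 ORFs of at least 5000 nt had a median of 0.15 and 0 of them were 2-fold lower. ACC1 was low among them, with 6 ORFs below it and 56 above. OLE1 had 347 and 419.6 RPKM and a ratio of 0.20 (interval 0.08 to 0.31).

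PHS1 had 127 RPKM (369 reads) in the unselected and 67.6 RPKM (58 reads) in the RiboMinus library. Its ratio of -0.98 had an interval of -1.41 to -0.59. Of the 520 ORFs nearest in length, 552 to 747 nt, 49 had lower ratios. IFA38 had 225 and 351 RPKM and a ratio of 0.57 (interval 0.41 to 0.73), with 79 of its 520 neighbours in length above it. ELO2 and ELO3 had ratios of -0.44 (interval -0.64 to -0.24) and -0.36 (interval -0.53 to -0.20), and their intervals overlapped. ELO1 had 0.04 and TSC13 -0.16, with intervals that held the median ORF. Spearman's rho between this ratio and coding GC content was -0.38 across all ORFs kept and 0.44 across the 10 members. Relative to ORFs of like length 1 member, PHS1, was at least 1.5-fold lower and 1, IFA38, higher, against 15.1% and 15.3% of all ORFs. Relative to the 520 ORFs nearest in GC content PHS1 had -1.06, TSC13 -0.52, ELO2 -0.51, ELO3 -0.47, FAS2 0.50 and IFA38 0.47, and the other members lay between -0.03 and 0.38.

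**Figure D3:**
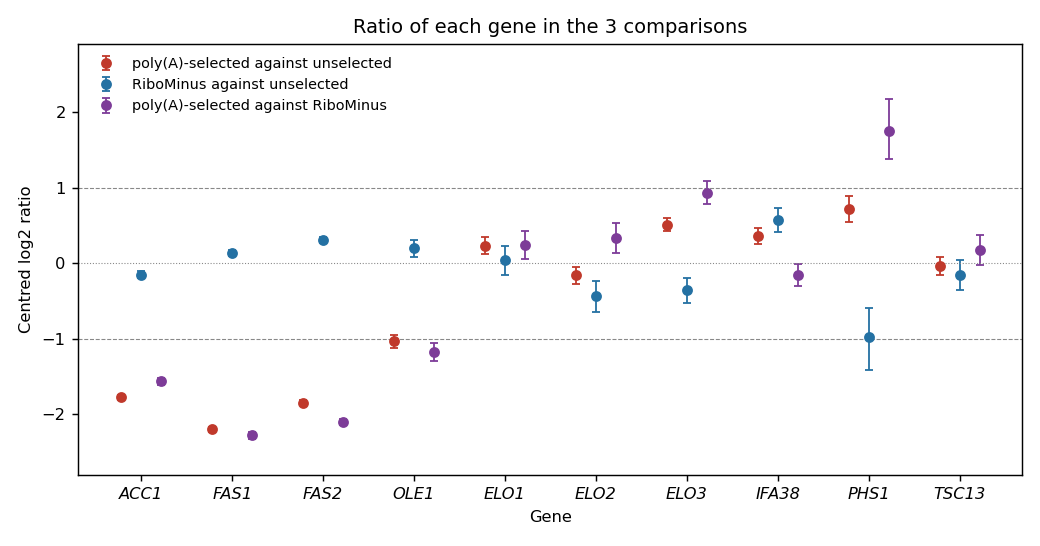
Centred log2 ratio of each gene in the 3 comparisons, with 95% Clopper-Pearson counting intervals as bars and the 2-fold limits as dashed lines. FAS1, FAS2, ACC1 and OLE1 lie at or below -1.03 in both comparisons of the poly(A)-selected library, and PHS1 ranges from -0.98 to 1.75. The comparisons share libraries, so their values are not independent.

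In poly(A)-selected against RiboMinus RNA, the same 4 genes were at least 2-fold lower and PHS1 was at least 2-fold higher, against 10.8% lower and 14.1% higher of all ORFs kept. This comparison shares a library with each of the others. FAS1 had a ratio of -2.28 (interval -2.32 to -2.24), FAS2 -2.10 (interval -2.14 to -2.06) and ACC1 -1.56 (interval -1.61 to -1.52). Among the 63 ORFs kept with at least 5000 nt, the median was -1.65 and 87.3% were at least 2-fold lower. Of these ORFs 2 lay below FAS1, 8 below FAS2 and 36 below ACC1, so ACC1 was above their median. OLE1 had -1.18 (interval -1.30 to -1.06), with 506 of the 520 ORFs nearest in length above it. PHS1 had 247 RPKM against 67.6, a ratio of 1.75 (interval 1.38 to 2.17). ELO3 had a ratio of 0.93 (interval 0.78 to 1.09), just under the 2-fold limit. At 1.5-fold 4 members were lower and 2 higher, ELO3 and PHS1, against 24.0% and 25.8% of all ORFs. ELO1, ELO2 and TSC13 had 0.24, 0.33 and 0.17, which became -0.22, -0.14 and -0.29 with an expression-weighted centre. IFA38 had -0.16. Relative to ORFs of like length, 3 members were at least 1.5-fold lower and 2 higher, against 19.0% and 17.5% of all ORFs.

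The balance of FAS1 to FAS2 was read within each library, because both subunits belong to the same enzyme and the genes are close in coding length, at 6153 and 5661 nt. FAS1 was slightly higher in unselected RNA and slightly lower in poly(A)-selected RNA. The ratio of FAS1 to FAS2 in RPKM was 1.10 (interval 1.08 to 1.12) in the unselected library, 0.860 (interval 0.837 to 0.885) in the poly(A)-selected library and 0.978 (interval 0.949 to 1.01) in the RiboMinus library. The interval of the RiboMinus library held equal levels. On the log2 scale the balance was 0.36 lower in poly(A)-selected than in unselected RNA, a difference of -0.36 (normal-approximation interval -0.40 to -0.31). It differed by -0.17 (interval -0.22 to -0.12) between RiboMinus and unselected RNA, and by -0.18 (interval -0.24 to -0.13) between poly(A)-selected and RiboMinus RNA. With the local line on length removed the first of these differences was -0.28 and the last -0.11.

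To show how far the balance of other subunit genes moved, 8 pairs that encode partners in other complexes were read the same way. Between poly(A)-selected and unselected RNA their log2 differences had sizes from 0.04 for PDA1:PDB1, subunits of pyruvate dehydrogenase, to 0.92 for RPO21:RPB2, the largest subunits of RNA polymerase II. The median size was 0.29, and 2 of the 8 pairs moved further than FAS1:FAS2 at 2 decimals of log2. FRS1:FRS2 tied at -0.36 and moved slightly further as a fold, 1.29 against 1.28. Between RiboMinus and unselected RNA 6 of the 8 moved further. Within the unselected library 7 of the 8 pairs were further from equal levels than FAS1:FAS2, in the poly(A)-selected library 6 and in the RiboMinus library all 8. Partners in several of these pairs differ more in coding length than FAS1 and FAS2 do, such as RPO21 at 5199 nt and RPB2 at 3672 nt.

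**Figure D4:**
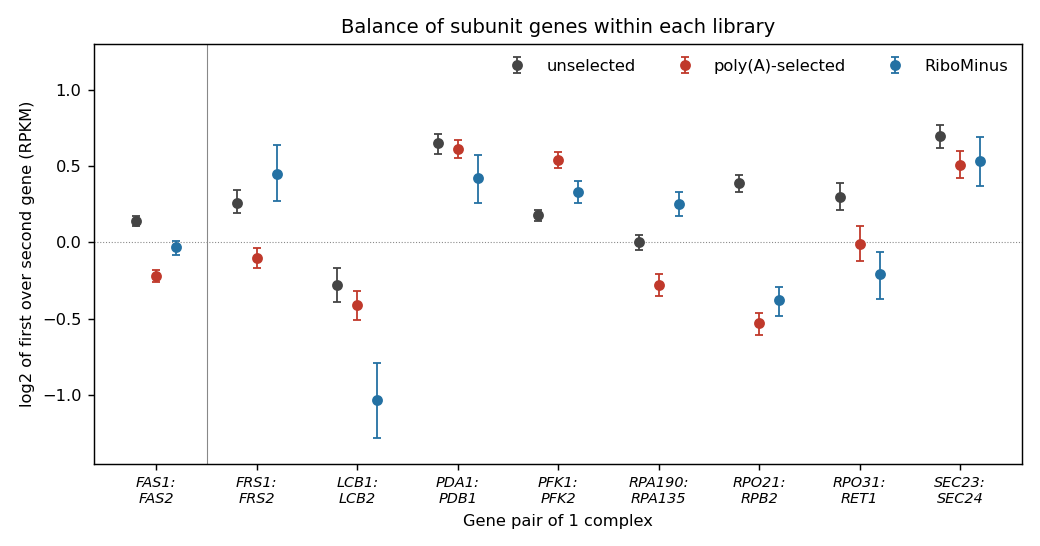
Log2 of the RPKM of the first gene over the second within each library, for FAS1:FAS2 at the left and for 8 gene pairs of other complexes, with 95% Clopper-Pearson counting intervals as bars. FAS1:FAS2 lies at 0.14 in the unselected, -0.22 in the poly(A)-selected and -0.03 in the RiboMinus library.

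The balance of other member pairs was read in the same way. The ratio of ACC1 to FAS1 was 0.675 in unselected, 0.911 in poly(A)-selected and 0.554 in RiboMinus RNA. The ratio of OLE1 to FAS1 was 0.363 and 0.380 in unselected and RiboMinus RNA and 0.816 in poly(A)-selected RNA. Within the elongation cycle, IFA38 stood to PHS1 at 1.76 (interval 1.57 to 1.99) in unselected, 1.38 (interval 1.28 to 1.48) in poly(A)-selected and 5.20 (interval 3.95 to 6.95) in RiboMinus RNA. The last value rests on the 58 RiboMinus reads of PHS1. TSC13 stood to PHS1 at 1.79, 1.06 and 3.19 in the same order.

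The ORFs whose pair of ratios against the unselected library lay nearest were found among 4848 others with a mean of at least 10 RPKM, over 3 libraries only. For FAS1 they were TRA1, which encodes a scaffold shared by SAGA and NuA4, at a distance of 0.082 log2, YBR238C at 0.091 and DMO1 at 0.155. TRA1 has 11232 nt of coding sequence, but YBR238C has 2193 nt and DMO1 348 nt. For FAS2 they were NUP192, a nucleoporin gene, ARO1, a multifunctional enzyme of aromatic amino acid synthesis, and UTP20, an assembly factor of the small ribosomal subunit, with 5049, 4764 and 7479 nt. For OLE1 they were HFA1, the methionyl-tRNA synthetase gene MES1 and VTC3, a vacuolar polyphosphate polymerase subunit gene, and these have 6369, 2253 and 2505 nt. Their distances from OLE1 were 0.016, 0.021 and 0.022 log2. The counting interval of OLE1 itself was wider, 0.08 to 0.31 in RiboMinus against unselected RNA, so counting error could change which ORFs are nearest.

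Other genes of fatty acid metabolism were read as lists in poly(A)-selected against unselected RNA. Of 10 genes that supply or carry acetyl-CoA and acyl-CoA, 3 were at least 2-fold lower and 0 higher, against 8.64% and 6.60% of all ORFs kept, with a median of -0.83. Their median coding length was 2076 nt, against 1248 nt for all ORFs kept. The lowest was ACS2, an acetyl-CoA synthetase, which went from 406 to 190.1 RPKM with a ratio of -1.33 (interval -1.41 to -1.26). The highest was the acyl-CoA binding protein gene ACB1, of 261 nt, with a ratio of 0.49. The most abundant was ALD6, the cytosolic aldehyde dehydrogenase, at 1825 and 1663 RPKM with a ratio of -0.37. Of 4 genes that feed electrons to the desaturase and other membrane enzymes 0 passed 2-fold, and their median was 0.52. The short CYB5, cytochrome b5, had 0.77, the long NCP1, the cytochrome P450 reductase, had -0.85, and CBR1, cytochrome b5 reductase, had 0.61.

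The counts that follow stand against the same 8.64% of ORFs lower and 6.60% higher. Of 10 regulators, 2 were lower and 1 higher, with a median of -0.54 and a median coding length of 2046 nt. INO4, a partner of the activator Ino2 on lipid genes, had 1.25 (interval 0.86 to 1.68) from 64 unselected reads. RAP1, a general regulatory factor, had -1.20, and ABF1, another, had -0.54. In the 8 genes of mitochondrial fatty acid synthesis 2 were lower and 0 higher, with a median of -0.11. The acyl carrier protein gene ACP1 had 0.61 after poly(A) selection and -2.08 (interval -2.58 to -1.63) after RiboMinus treatment, and OAR1, the reductase gene, had -1.30 from 61 and 41 reads. Of 13 sphingolipid genes, the main users of very long chains, 1 was higher and 1 lower, shares close to those of all ORFs, with a median of -0.23. TSC3, the short activator of serine palmitoyltransferase, had 1.11 and SUR1, a mannosyltransferase subunit of complex sphingolipid synthesis, had -1.31.

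Of 9 glycerolipid genes 0 passed 2-fold, against 8.64% of ORFs lower and 6.60% higher, with a median of -0.39. SLC1, an acyltransferase of phosphatidic acid synthesis, had 0.20 in this comparison and -1.48 in RiboMinus against unselected RNA. DGA1, a diacylglycerol acyltransferase, had 0.38 and PAH1, the phosphatidate phosphatase, -0.62. Genes listed under peroxisomal beta-oxidation, a pathway repressed by glucose, were at low levels, and 8 of the 10 listed passed the filter. Of those 8, 1 was higher and 0 lower. PEX11, which encodes a peroxisomal membrane protein and not an enzyme of the pathway, was the most abundant of the list. It had 42.2 RPKM in the unselected library, against 127 RPKM for PHS1, the lowest of the 10 biosynthetic genes. CTA1, peroxisomal catalase, had 1.19 from 7 unselected reads, and FOX2, the multifunctional enzyme, had -0.05.

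CATGTG is the core of the element through which Ino2 and Ino4 bind lipid gene promoters, and it was searched on both strands in the 500 bases before each start codon. It was present before 4 of the 10 members, ACC1, FAS2, ELO2 and PHS1, with 1 match each, and before 13.0% of all 5293 ORFs. A match is a description of letters and not of binding, and no match in this window says nothing of sites elsewhere. The matches of the carboxylase and synthase genes are shown on the gene's strand with 12 bases on each side, the motif or its complement in capitals. They lie at chrXIV:661699-661728 (minus strand) and chrXVI:108408-108437 (plus strand), and the motif begins 342 and 232 bases before the start codon.
ACC1: gagtgatcggtgCATGTGtttataaaagtt
FAS2: ctcccgcgttttCACATGctacctcattcg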

How the data were processed

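The 3 libraries were analysed from RPKM values deposited by the authors, with 2 decimals, for 5293 ORFs. Bowtie2, TopHat2 and sacCer3 are named, per the submitters' processing notes. Which tool did what, how reads were counted and over which annotation is not given in the sources used here. Another 2 per-sample columns, footprints and Ribo-Zero RNA, matched none of these samples and were not used here.

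All ORF names were matched to the RefSeq R64 annotation, 203 after a hyphen was restored. Low RPKM times coding length fell on whole multiples of 1 step, which gave the reads. Values under 100 reads were whole to within 0.1 read in 99.1% to 99.9% of cases. The filter kept 5199 ORFs and removed 94. Intervals are Clopper-Pearson for ratios and Poisson for levels. The members, lists and rules were chosen with earlier results of these data known. All members are named, with the most abundant, highest and lowest gene of each list and the 3 ORFs nearest to FAS1, FAS2 and OLE1. Alternatives were other pseudocounts, filters, centres, trends and thresholds. Recovery of depth, 2-fold calls, counting intervals and removal of a length trend were tested on simulated data. The simulated reads were independent draws and held no length, GC or selection bias. That test therefore does not cover such bias in the ratios, or reads that are not independent molecules. Python 3.11.15, numpy 2.4.6, scipy 1.17.1 and matplotlib 3.10.9 were used.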

Additional observations from a re-analysis of the deposited data

How the results depend on the processing

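Of 120 alternative values of the counts and of the FAS1 to FAS2 balance, 105 stayed within 1.5 times the count or within the counting interval. With the length trend removed, 1 member rather than 4 was 2-fold lower in poly(A)-selected against unselected RNA, 0 with the local line, and 3 without centring, where OLE1 at -0.79 lost its call. In poly(A)-selected against RiboMinus RNA the local line left 1 lower member rather than 4, and without centring, at 1.5-fold or with the GC trend removed 2 members rather than 1 were higher. At 1.5-fold 1 member was higher in poly(A)-selected against unselected RNA rather than 0. In RiboMinus against unselected RNA 1 member was lower rather than 0 at 1.5-fold and with the length trend, the GC trend or the local line removed. Relative to ORFs of like length, the local line left 2 lower members rather than 4 in poly(A)-selected against unselected RNA, and a window of 5% left 0 higher members rather than 1 in RiboMinus against unselected RNA. The local line moved the difference in FAS1 to FAS2 balance to -0.28 from -0.36 and to -0.11 from -0.18. For these changes the cause was not tested. Of 180 alternative ratios of single members 45 left their counting interval, all of them under no centring or an expression-weighted centre, which shifted ratios by up to 0.47 log2, and 0 of the called ratios changed sign. No paired analysis was possible because each preparation has 1 library. The 58 reads of PHS1 in the RiboMinus library are the least depth behind any member.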
